A study of Sus scrofa with 13 samples.

Results

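The RNA-seq table of pig outflow veins lists 370 rows annotated as microRNA genes, and 189 of them had more than 0.5 RPKM in at least 5 of the 13 libraries. Those 189 microRNA precursor loci are described here, among 14579 genes of any kind that met the same condition and 30477 rows in all. RPKM is a read count scaled to gene length and library total. The precursors were thus selected on their measured RPKM in these same libraries, so the presence of a precursor among the 189 is not a finding. MIR106B and MIR26B were named at the outset because earlier work on these values had picked them out.

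The veins came from arteriovenous fistulas, in which an artery is joined to a vein so that the vein carries arterial flow. All animals received a hydrogel with PLGA, a biodegradable polymer. It carried no hormone in the 5 vehicle libraries (labelled PLGA+Hydrogel) and was loaded with 1α,25-dihydroxyvitamin D3 in the 8 treated ones (labelled 1,25 NP PLGA+Hydrogel), which are called 1,25 NP below. The labels give no genotype, strain, age or time of harvest for the pigs. Libraries carry the animal codes of the deposited columns. By the sex marked there, vehicle had 3 females and 2 males and 1,25 NP had 3 females and 5 males.

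MicroRNAs are short RNAs that pair with messenger RNAs and lower their translation or stability. A long primary transcript is cut in the nucleus by DROSHA with DGCR8, the hairpin precursor is exported by XPO5, and DICER1 cuts it to the mature strand that an Argonaute protein such as AGO2 holds. Many precursors lie inside protein-coding genes, called hosts here, and some share one primary transcript as a cluster. The libraries were made with an RNA-seq kit for long transcripts, so a read on such a row comes from a long or hairpin RNA or from another gene that overlaps it, and the mature microRNA was not measured.

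Few reads lay behind most precursors. The rows were 59 to 117 bases long, with a median of 82, and the library totals were 30261776 to 50271231 reads. One read on a row of 80 bases was therefore worth 0.246 to 0.408 RPKM, so that the 0.5 RPKM condition asked for only a few reads. The mean number of reads per library ran from 1.31 to 24947 with a median of 10.7. Of the 189 precursors, 102 had a mean of at least 10 reads, 51 of at least 30 and 15 of at least 100, whereas 23 had fewer than 3. The number of precursors without a read ran from 5 in vehicle P15 to 48 in 1,25 NP P28, the library with the next most being 1,25 NP P31 with 27. At the edge of the condition, 9 rows passed with exactly 5 libraries, MIR106B, MIR20A, MIR10A and ssc-mir-130b among them, and their mean reads were 1.31 to 3.62. Another 9 rows missed it with exactly 4 libraries, including MIR1-2, MIR19B-1 and ssc-mir-130a, at mean reads of 0.923 to 7.15.

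**Figure D1:**
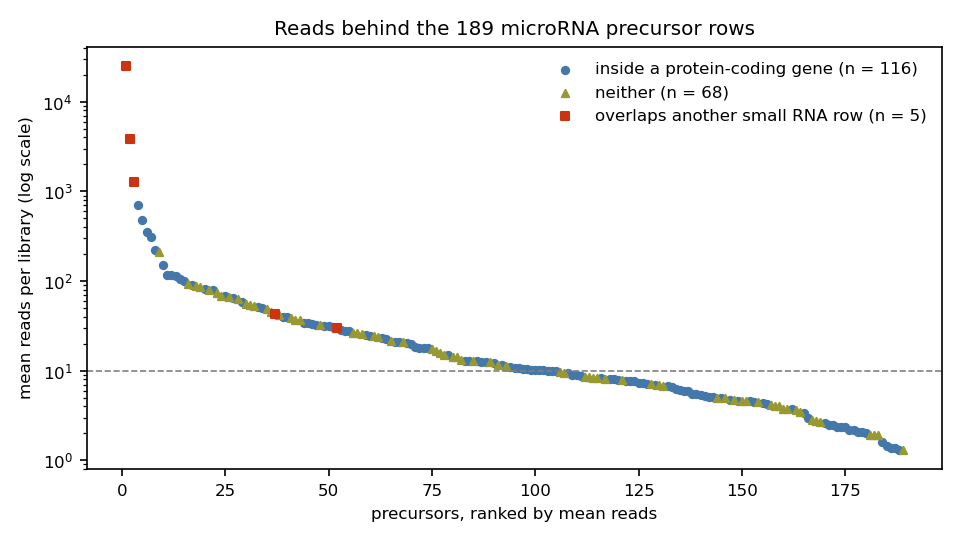
Mean reads per library (vertical axis, log scale) of the 189 precursor rows, ranked from most to fewest, with marks for rows that overlap another small RNA row, rows inside a protein-coding gene and all others. The 3 rows with the most reads all overlap another small RNA, and the curve crosses 10 reads (dashed line) at rank 102.

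The rows with the most reads overlapped other small RNA genes. Between 0.0586% and 0.163% of all reads lay on the 189 rows, and 68.7% of those were on a single ssc-mir-1285 row (ENSSSCG00000035200, chr1:179686392-179686471), with a mean of 24947 reads per library. That row overlaps a 300-base row of the signal recognition particle RNA, an abundant RNA of protein targeting, and so does the other ssc-mir-1285 row (ENSSSCG00000038379). The precursors and the overlapping rows went up and down together over the 13 libraries, with Pearson r of 0.94 and 0.96 on log2(RPKM + 0.5). ssc-mir-6516 overlaps SCARNA16, a guide RNA of the Cajal body, and had 2.17 to 2.34 times its RPKM in each library. With ssc-mir-664, which overlaps SNORA36B, and ssc-mir-1839, which overlaps SCARNA15, these 5 rows held 82.9% of the precursor reads. Whether a read there came from the microRNA or from its neighbour cannot be told apart, and without the 5 rows the share was 0.00984% to 0.0199% of a library.

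Between the groups, the 3 rows with the most reads differed by less than their standard error. The larger ssc-mir-1285 row had 8788, 3549, 3606, 4895 and 6788 RPKM in vehicle P13 to P17 and 2471, 5202 and 17595 as the lowest, median and highest of 1,25 NP, with P28 and P21 at the top. Its log2 difference, 1,25 NP minus vehicle, was 0.36 (SE 0.53), and the row spanning it, the ubiquitin ligase adaptor KLHDC2, had 0.37 (SE 0.37). For the other ssc-mir-1285 row and the ribosomal protein gene RPS29 around it the log2 differences were -0.46 (SE 0.66) and -0.08 (SE 0.30). ssc-mir-6516 had 239, 1941, 1141, 762 and 299.8 RPKM in vehicle and 178, 681 and 3698 in 1,25 NP by the same 3 measures, a log2 difference of 0.31 (SE 0.74). The log2 differences of ssc-mir-664 and ssc-mir-1839 were 0.17 (SE 0.77) and -0.23 (SE 0.45), and that of SCARNA15, which overlaps the latter, was -0.40 (SE 0.31).

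Across all genes, limma on log2(RPKM + 0.5) with Benjamini-Hochberg adjustment called 0 of 14579 (0.0%) between 1,25 NP and vehicle veins at an adjusted p under 0.05. None of the 189 precursors was called, at adjusted p-values from 0.795 to 0.994 by the same test. An unadjusted p under 0.05 was found for 18 precursors, 9.52% of the 189, beside 4.01% of all genes. Of these, 17 were lower in 1,25 NP veins, 8.99% of the 189, where the share over all genes was 3.21%. Only 1 precursor was higher, 0.529%, where the share over all genes was 0.803%. The shares over all genes depended on the scaling. Under median-of-ratios scaling they were 1.74% lower and 3.31% higher, beside 14 lower precursors and 1 higher, and under voom with sample quality weights 7.31% and 5.82%, beside 13 and 4. Log2 differences were below 0 for 118 of 189 precursors, 62.4%, beside 56.2% of all genes, and above 0 for 71, 37.6%, beside 43.8%. The median log2 difference, 1,25 NP minus vehicle, was -0.17 over the precursors, -0.09 over the 113 tested hosts and -0.07 over all genes. Their standard errors were wide, with a median of 0.47 against 0.33 over all genes, so that a typical 95% interval spanned 2.01-fold in each direction. No precursor separated the groups without overlap. Across all genes, 12 (0.0823%) did so lower in 1,25 NP and 2 (0.0137%) higher.

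Single libraries weigh on these counts. Without vehicle P17 the count of precursors lower at an unadjusted p under 0.05 was 11, with 2.09% of all genes, and without 1,25 NP P28 it was 25, with 8.75% of all genes. The count of higher ones was 9 without 1,25 NP P28, with 6.43% of all genes, 3 without vehicle P15 and 0 to 2 without any other. P17 and P28 were the libraries with the most smooth muscle RNA, with summed RPKM of the 4 markers MYH11, ACTA2, CNN1 and TAGLN of 5295 and 3838 against 392 to 818 in the other vehicle and 305 to 1859 in the other treated libraries. The part of smooth muscle in the counts was not tested. Endothelial markers (PECAM1, VWF and CDH5, 3 found of 4 listed) summed to 110 to 160 RPKM in vehicle and 56.6 to 149 in 1,25 NP. In whole vein, fewer cells of a type and less RNA per cell cannot be told apart.

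**Figure D2:**
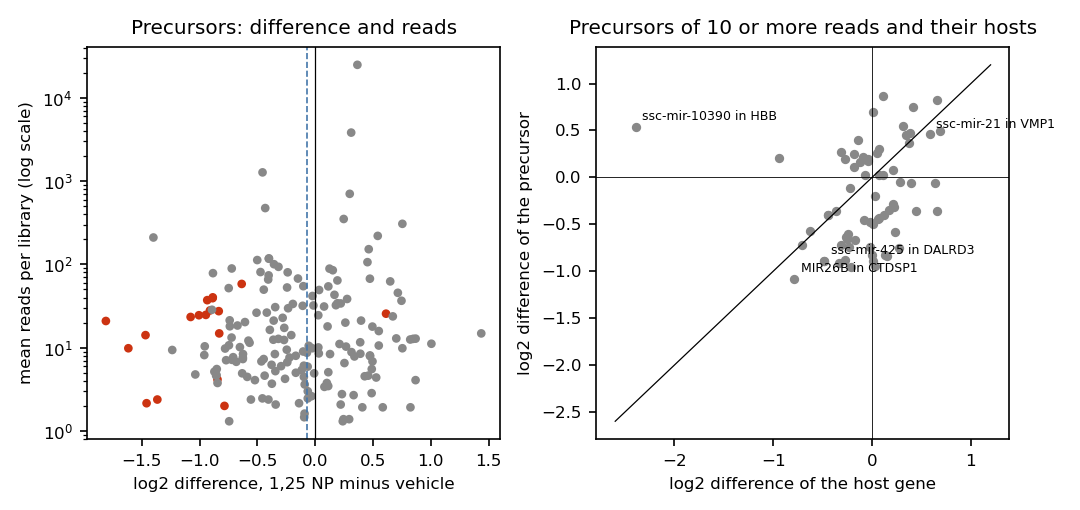
Left, the log2 difference (1,25 NP minus vehicle, horizontal axis) and mean reads per library (vertical axis, log scale) of the 189 precursors. Red points have an unadjusted p under 0.05, 17 on the left of 0 and 1 on the right, and the dashed line is the median of all genes at -0.07. Right, log2 differences of precursors with a mean of at least 10 reads against those of the protein-coding genes that hold them, with the line of equality. MIR26B and its host CTDSP1 were both below 0, and ssc-mir-10390 lay far from its host HBB.

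MIR106B and MIR25 belong to a cluster inside MCM7, a subunit of the DNA replication helicase. In human and mouse, microRNAs of this cluster restrain the cell cycle inhibitor p21. MIR106B (ENSSSCG00000039124, chr3:8007136-8007217) had 0.486, 1.19, 2.79, 1.14 and 1.21 RPKM in the vehicle libraries P13 to P17, against a lowest value of 0, a median of 0.138 and a highest of 0.843 in 1,25 NP. Vehicle veins thus lay higher, and the groups overlapped only where 1,25 NP P24, at 0.843, exceeded vehicle P13. These levels rest on 25 reads over 5 vehicle libraries and 6 reads over 8 treated ones, of which 4 had none. The log2 difference was -1.37 (SE 0.30, 95% interval -2.02 to -0.72). MIR106B met the 0.5 RPKM condition through 4 vehicle libraries and P24, so the condition itself favoured a difference.

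The neighbouring MIR25 (ENSSSCG00000038479, chr3:8006716-8006799) had more reads, 6 to 35 per library. Its RPKM was 4.27, 8.16, 3.46, 4.75 and 8.27 in vehicle P13 to P17 and 1.40 at the lowest, 3.01 at the median and 6.20 at the highest in 1,25 NP. The groups overlapped, although 4 of 8 treated libraries lay below the lowest vehicle one, and the log2 difference was -0.83 (SE 0.33). The host MCM7 had 14.3 ± 2.99 RPKM (SD, n = 5) among vehicle and 15.03 ± 5.44 (SD, n = 8) among 1,25 NP libraries, a log2 difference of -0.00 (SE 0.29) whose sign depended on the setting. Over the 13 libraries the level of MIR25 followed neither MCM7 (r = 0.16) nor COPS6 (r = -0.40), a subunit of the COP9 signalosome whose row also spans it. For MIR106B and MCM7 r was 0.03.

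MIR26B (ENSSSCG00000022650, chr15:120453406-120453490) lies inside CTDSP1, a phosphatase of the RNA polymerase II tail, and members of the mir-26 family sit in CTDSP genes in human too. Vehicle P13 to P17 had 7.74, 11.1, 7.58, 7.45 and 13.3 RPKM, and the 1,25 NP libraries had 1.87 at the lowest, 4.19 at the median and 8.46 at the highest. Only 1,25 NP P28 reached the vehicle range, and the other 7 lay below the lowest vehicle library. Group means were 9.44 ± 2.65 (SD, n = 5) and 4.36 ± 1.87 (SD, n = 8), a log2 difference of -1.08 (SE 0.28, adjusted p = 0.795 by limma). Each library held 7 to 57 reads on the row. Leaving out any 1 library gave log2 differences from -1.22 to -0.94.

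CTDSP1 itself had 39.7, 26.3, 23.3, 28.4 and 52.8 RPKM in vehicle and 7.67, 18.3 and 48.2 as the lowest, median and highest of 1,25 NP, a log2 difference of -0.79 (SE 0.37). P17 and P28 were highest in their group for host and precursor alike, and 1,25 NP P31 was lowest for both. Over the 13 libraries r was 0.86, or 0.75 without the 2 libraries farthest from the CTDSP1 median. By r with MIR26B, CTDSP1 ranked 23 of 14578 genes.

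ssc-mir-191 and ssc-mir-425 are neighbours inside DALRD3, a gene needed for a methyl mark on some arginine transfer RNAs. ssc-mir-191 (chr13:31655484-31655563) had 8.47, 17.5, 15.6, 22.8 and 17.1 RPKM in vehicle P13 to P17 and 5.57, 8.34 and 13.5 as the lowest, median and highest of 1,25 NP. All 8 treated libraries were under the vehicle mean, and 4 were under vehicle P13, the lowest of its group. The log2 difference was -0.89 (SE 0.27). ssc-mir-425 (chr13:31654994-31655073) had 15.4, 9.79, 10.6, 18.5 and 20.8 RPKM in vehicle and 1.42, 8.92 and 15.1 as the lowest, median and highest of 1,25 NP. It too had a log2 difference of -0.89 (SE 0.41), which was -0.59 without 1,25 NP P31, the library at 1.42.

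The host DALRD3 had 13.4 ± 2.52 RPKM (SD, n = 5) among vehicle and 9.82 ± 3.00 (SD, n = 8) among 1,25 NP libraries, a log2 difference of -0.48 (SE 0.27). The neighbours differed in how they followed it. For ssc-mir-425 and DALRD3 r was 0.92 over the 13 libraries, and 0.77 without the 2 libraries farthest from the DALRD3 median, and DALRD3 ranked 3 of 14578 genes. For ssc-mir-191 and DALRD3 r was 0.25, at rank 5493. Both precursors had about the level of their host per kilobase, 11.5 and 11.1 RPKM beside 11.2 on average.

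ssc-mir-152, whose human relative targets a DNA methyltransferase, lies inside COPZ2, a coat protein of Golgi vesicles. Its RPKM was 7.65, 2.66, 1.93, 2.45 and 7.61 in vehicle P13 to P17 and 0, 1.34 and 2.94 as the lowest, median and highest of 1,25 NP. Vehicle P13 and P17 stood above all others, and 4 of 8 treated libraries lay under the lowest vehicle one. The log2 difference was -1.62 (SE 0.56), on 0 to 33 reads per library. COPZ2 averaged 84.6 RPKM, where the precursor averaged 2.55, and its log2 difference was -0.30 (SE 0.27).

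ssc-mir-130b had 0.747, 1.22, 1.30, 0.293 and 3.22 RPKM in vehicle and 0, 0 and 0.641 as the lowest, median and highest of 1,25 NP. Only 2 treated libraries, P21 and P22, had a read, 3 in all, where the 5 vehicle libraries had 25. The log2 difference was -1.46 (SE 0.33). Like MIR106B, it met the condition through 4 vehicle libraries and 1 treated one. It lies in an unnamed protein-coding row (ENSSSCG00000010084) with 0.958 RPKM on average and a log2 difference of 0.20.

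**Figure D3:**
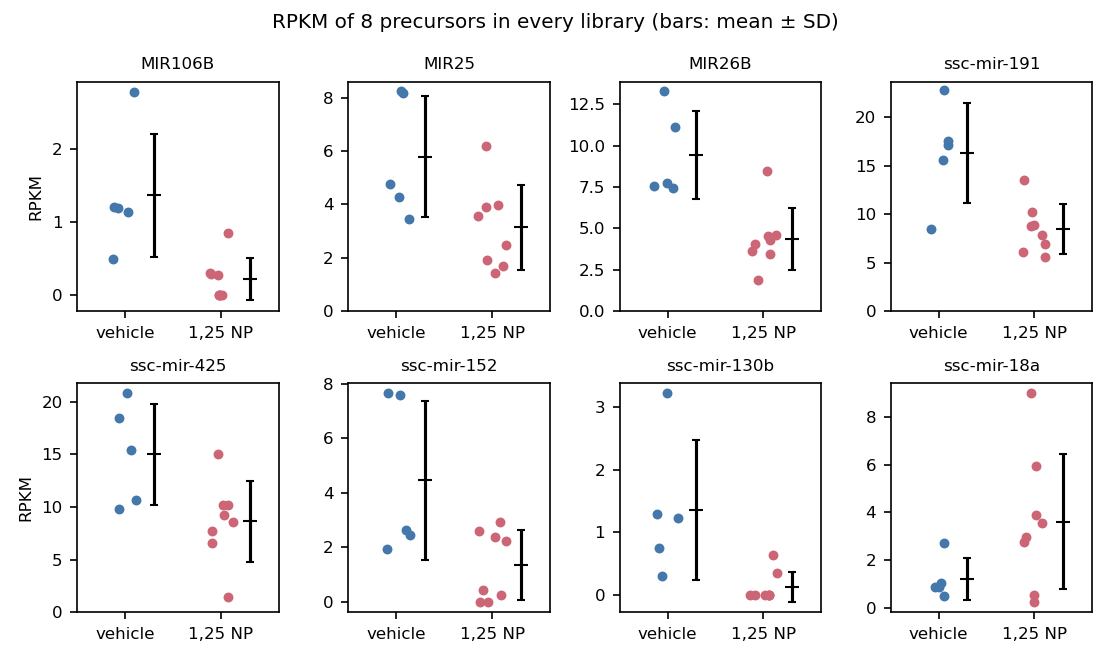
RPKM (vertical axes) of 8 precursors in each vehicle library (blue, n = 5) and each 1,25 NP library (red, n = 8), with the mean and SD of each group as a bar beside the points. Vehicle libraries lie higher for the first 7 precursors and lower for ssc-mir-18a, and the groups overlap in all 8 panels.

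Other precursors lower in 1,25 NP at an unadjusted p under 0.05 were named after their values were seen. They include the pair ssc-mir-29b-2 and ssc-mir-29c on chromosome 9, members of a family known to target collagen and elastin messages. ssc-mir-29b-2 had 8.20, 4.36, 11.6, 4.95 and 15.9 RPKM in vehicle and 1.38, 4.32 and 7.32 as the lowest, median and highest of 1,25 NP, a log2 difference of -1.01 (SE 0.39). ssc-mir-29c had 13.1, 6.31, 12.3, 12.3 and 22.3 RPKM in vehicle and 2.87, 6.56 and 19.0 in 1,25 NP by the same 3 measures, a log2 difference of -0.93 (SE 0.39). Both were highest in vehicle P17, and for each 4 of 8 treated libraries lay below the lowest vehicle one. For ssc-mir-29b-2, 3 of 5 vehicle libraries lay above every treated one, against 1 for ssc-mir-29c. The other pair of the family, ssc-mir-29b-1 and ssc-mir-29a on chromosome 18, had log2 differences of -0.78 (SE 0.46) and -0.51 (SE 0.37), neither with an unadjusted p under 0.05.

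The lowest log2 difference of all 189 was that of ssc-mir-101-2, at -1.81 (SE 0.63). It had 9.13, 3.15, 8.01, 10.2 and 17.9 RPKM in vehicle and 0, 2.77 and 7.17 as the lowest, median and highest of 1,25 NP. The 3 lowest libraries were P31, P32 and P42, all treated, at 0, 0.245 and 1.42. ssc-mir-365-2 was also lowest in P31 and P32, at 0.277 and 0.248 RPKM, and had a log2 difference of -1.47 (SE 0.51). The 6 remaining precursors of the 17 were MIRLET7G, a let-7 family member that restrains growth genes, ssc-mir-9855-1, ssc-mir-7142, ssc-mir-32, ssc-mir-7134 and ssc-mir-769, with log2 differences from -0.95 to -0.64.

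Of the precursors on the higher side, only ENSSSCG00000025706, a row without a gene name, had an unadjusted p under 0.05. It had 5.85, 2.87, 8.84, 5.50 and 9.02 RPKM in vehicle P13 to P17 and 5.45, 9.93 and 13.5 as the lowest, median and highest of 1,25 NP. In all, 6 of the 8 treated libraries lay above every vehicle one, and the log2 difference was 0.61 (SE 0.28). The row partly overlaps a tested protein-coding row (ENSSSCG00000015988, chr15:82958362-82968736). Whether a read in the shared stretch came from the precursor or from that gene cannot be told apart. Another unnamed row, ENSSSCG00000050728, had 0 to 0.851 RPKM in vehicle, and 13.6, 11.2 and 5.73 in 1,25 NP P31, P32 and P42 against 0 to 1.58 in the other 5. Its log2 difference of 1.44 (SE 0.79) therefore rests on 3 libraries.

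ssc-mir-18a comes from a cluster on chromosome 11 with ssc-mir-17, ssc-mir-19a, MIR20A and MIR92A-1. In human and mouse the cluster is driven by MYC and promotes proliferation. ssc-mir-18a had 0.868, 1.07, 2.71, 0.510 and 0.863 RPKM in vehicle P13 to P17 and 0.250, 3.27 and 8.98 as the lowest, median and highest of 1,25 NP. Most treated libraries, 6 of 8, lay above every vehicle one, while P23 and P28 lay in or under the vehicle range. The log2 difference was 1.01 (SE 0.54), with 0.75 (SE 0.85) for ssc-mir-19a, 0.49 (SE 0.47) for MIR20A, 0.41 (SE 0.46) for ssc-mir-17 and 0.39 (SE 0.60) for MIR92A-1.

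All 5 precursors of the cluster that met the 0.5 RPKM condition thus had differences above 0, and none had an unadjusted p under 0.05. MIR20A met it through vehicle P16 and 1,25 NP P21, P22, P31 and P42, so the condition itself favoured a difference above 0 for that row. Among males alone, ssc-mir-19a (-0.43), MIR20A (-0.18) and MIR92A-1 (-0.22) were below 0. P31 and P42 had the highest levels of ssc-mir-18a and ssc-mir-19a, with 26.9 and 34.0 RPKM of ssc-mir-19a against 0 in P28. Summed RPKM of the proliferation genes TOP2A, CCNB1 and MCM2, 3 found of 4 listed, was 6.86 to 20.7 in vehicle and 6.64 to 76.9 in 1,25 NP, with its highest value in P24 and 32.3, 62.5 and 35.7 in P31, P32 and P42. Its part in the levels of the cluster was not tested.

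**Figure D4:**
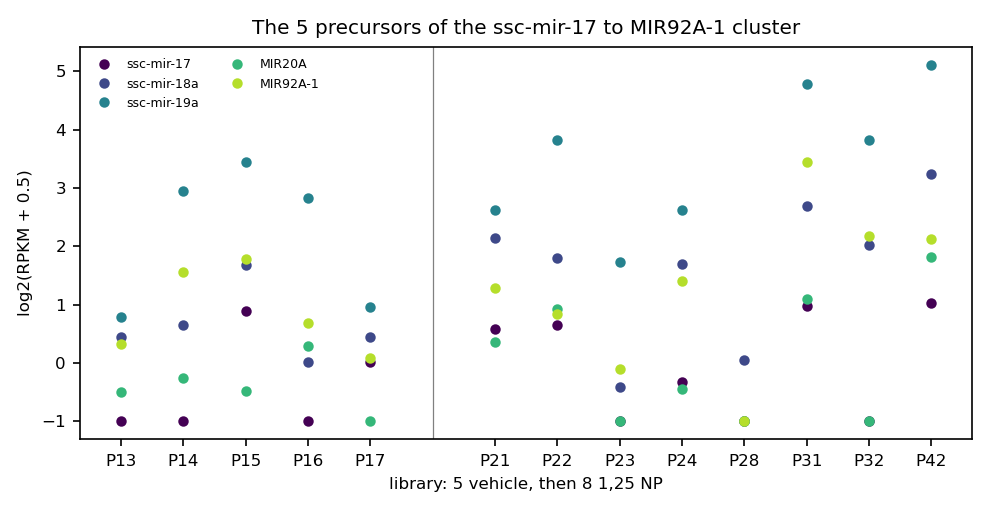
Level of the 5 precursors of the chromosome 11 cluster, as log2(RPKM + 0.5) on the vertical axis, in each of the 5 vehicle and 8 1,25 NP libraries along the horizontal axis. A value of -1 stands for no read. P31 and P42 lie at the top for ssc-mir-18a and ssc-mir-19a, and P28 lies at -1 for 4 of the 5 precursors.

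The last 2 precursors with the smallest p-values on the higher side were ssc-mir-9807 and ssc-mir-1343. ssc-mir-9807 had reads in only 1 vehicle library, P15 at 1.52 RPKM, and in 6 of 8 treated ones at 0.299 to 1.68. This difference of 0.82 (log2, SE 0.46) rests on 5 vehicle and 20 treated reads. ssc-mir-9807 met the 0.5 RPKM condition through vehicle P15 and 1,25 NP P21, P22, P23, P24 and P42, so the condition itself favoured a difference. ssc-mir-1343, inside the pyruvate dehydrogenase component PDHX, had 0.747, 1.22, 2.60, 3.81 and 1.73 RPKM in vehicle and 0.619, 5.13 and 8.03 as the lowest, median and highest of 1,25 NP. Its log2 difference was 0.87 (SE 0.51) and that of PDHX 0.11 (SE 0.30).

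Among rows that overlap no other small RNA, MIR199A-1, ssc-mir-214 and ssc-mir-2411 had the most reads. The first pair lies in DNM3, a dynamin of membrane fission; in mouse both come from a transcript on the opposite strand of that gene and mark mesenchymal cells. MIR199A-1 had 98.6, 189.5, 191.7, 85.9 and 55.2 RPKM in vehicle and 16.2, 166.6 and 349.4 as the lowest, median and highest of 1,25 NP. ssc-mir-214 had 137.1, 106.2, 111.3, 57.7 and 95.04 RPKM in vehicle and 10.7, 97.7 and 204.04 in 1,25 NP. P28 was lowest for both, and the groups overlapped over most of their range.

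Neither member of the pair had a difference beyond its error, with log2 values of 0.30 (SE 0.60) for MIR199A-1 and -0.43 (SE 0.56) for ssc-mir-214. Per kilobase they stood far above their host, DNM3 having 1.87 RPKM on average against 156.8 and 97.8. Still, MIR199A-1 and DNM3 went together with r = 0.88, or 0.62 without the 2 libraries farthest from the DNM3 median. ssc-mir-2411, inside UBAP2L, a stress granule protein, had 75.5 ± 32.3 RPKM (SD, n = 5) among vehicle and 107.2 ± 80.6 (SD, n = 8) among 1,25 NP libraries, a log2 difference of 0.25 (SE 0.55).

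Precursors known from the vessel wall and from blood cells were also looked at, chosen after their values were seen. ssc-mir-143 and ssc-mir-145 share a transcript that marks contractile smooth muscle. ssc-mir-145 had 76.3, 46.7, 28.8, 21 and 243.2 RPKM in vehicle P13 to P17 and 4.23, 21.4 and 151.9 as the lowest, median and highest of 1,25 NP. Its 2 highest libraries were P17 and P28, which also had the highest smooth muscle marker sums. The 3 lowest were P31, P32 and P42 at 4.23, 7.11 and 11.9 RPKM, although their marker sums of 755, 732 and 498 lay in the range of the remaining libraries. The log2 differences were -1.40 (SE 0.76) for ssc-mir-145 and -0.74 (SE 0.74) for ssc-mir-143, neither with an unadjusted p under 0.05.

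ssc-mir-21, known to be raised in injured vessels and in fibrosis, lies in VMP1, a protein of autophagy. It had 16.3, 33.8, 17.9, 52.0 and 24.8 RPKM in vehicle and 10.8, 37.5 and 87.3 as the lowest, median and highest of 1,25 NP, a log2 difference of 0.46 (SE 0.44). P31 and P32 were the highest and P28 the lowest, and VMP1 had the same libraries at its ends, at 275, 142.5 and 18.0 RPKM. Over the 13 libraries r was 0.96, or 0.91 without the 2 libraries farthest from the VMP1 median, and no other of 14578 genes had a higher r with ssc-mir-21.

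ssc-mir-221 and ssc-mir-222, neighbours on chromosome X that promote smooth muscle growth in rat, had log2 differences of -0.27 (SE 0.44) and 0.85 (SE 0.53). Of the blood cell precursors, ssc-mir-223, known from neutrophils, had 3.03, 8.67, 11.6, 27.0 and 3.76 RPKM in vehicle and 0, 10.2 and 53.0 as the lowest, median and highest of 1,25 NP, a log2 difference of 0.03 (SE 0.87). MIR142 and ssc-mir-155, known from leukocytes, had means of 4.08 and 4.46 reads and log2 differences of -0.52 (SE 0.46) and -0.10 (SE 0.51). The leukocyte marker sum of PTPRC, CD3E, CD68 and S100A8 was 30.8 to 301 RPKM in vehicle and 16.1 to 292 in 1,25 NP.

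ssc-mir-10390 lies within the long HBB row (chr9:4621187-4809453), named for beta-globin, the oxygen carrier of red cells. It had 2.94, 20.7, 306.7, 27.7 and 3.76 RPKM in vehicle and 6.05, 37.4 and 92.04 as the lowest, median and highest of 1,25 NP, a log2 difference of 0.54 (SE 0.93). HBB was highest in vehicle P17 at 4248 RPKM, where the precursor was near its lowest, and r was -0.44.

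Precursors of the striated muscle microRNAs had few or no reads and did not reach the 0.5 RPKM condition. MIR1-2 had a mean of 2.31 reads and at most 11 in a library, and it missed the condition with 4 libraries above 0.5 RPKM. MIR133A-2 had a mean of 0.769 reads and MIR499 of 0.615, and MIR208A, ssc-mir-206 and ssc-mir-133b had none in any library. The skeletal and cardiac muscle markers MYH7, ACTA1 and CKM, 3 found of 6 listed, summed to at most 1.02 RPKM.

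By position, 119 of the 189 precursors lay wholly inside a protein-coding gene, 11 of them inside 2, with 116 such hosts in all. Another 21 overlapped a long noncoding RNA row but no protein-coding one, and 47 overlapped no other row. The file gives no strand and no exon positions, so whether a precursor lies on its host's strand, or in an intron, was not analysed here. Clusters within 10 kb numbered 26 and held 60 precursors, and 24 precursors lay on chromosome X.

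Precursors and hosts mostly went up and down together over the 13 libraries. Of 127 pairs of a precursor and a tested host, r was above 0 in 103 and above 0.8 in 22, and its median was 0.52. The median r of the precursors with all tested genes was 0.09. By r with its precursor, the host of the median pair stood at 16.6% of the ranked genes. Many other genes thus followed a typical precursor more closely than its host did. Among the 68 pairs with a mean of at least 10 precursor reads the median was 0.55, and the host was among the first 1% of genes by r in 10. The closest were ENSSSCG00000035742 with DDX5, an RNA helicase of the DROSHA complex, at r = 0.97, ssc-mir-21 with VMP1, MIR671 with the chondroitin synthase subunit CHPF2 at 0.95, and ssc-mir-15b with the condensin subunit SMC4 at 0.94. Others went apart, the lowest being ssc-mir-4331-2 with ACADSB at -0.56. These values share depth, cell makeup and, where a precursor lies in counted host sequence, reads, and they are given as a description.

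In level per kilobase, 32 of the 127 pairs had more RPKM on the precursor than on the host, and the median ratio was 0.449. Precursors of 1 cluster also went together. In the 18 pairs of neighbours with at least 10 reads each the median r was 0.81, from -0.64 to 0.95, beside 0.17 in 5133 pairs that share no cluster. Precursor and host had the same sign of log2 difference in 76 of 127 pairs, and in 37 of the 68 with at least 10 precursor reads. Log2 differences were below 0 for 62.4% of the 189 precursors and 59.3% of the 113 tested hosts. Many pairs would therefore share a sign without any link between precursor and host.

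**Figure D5:**
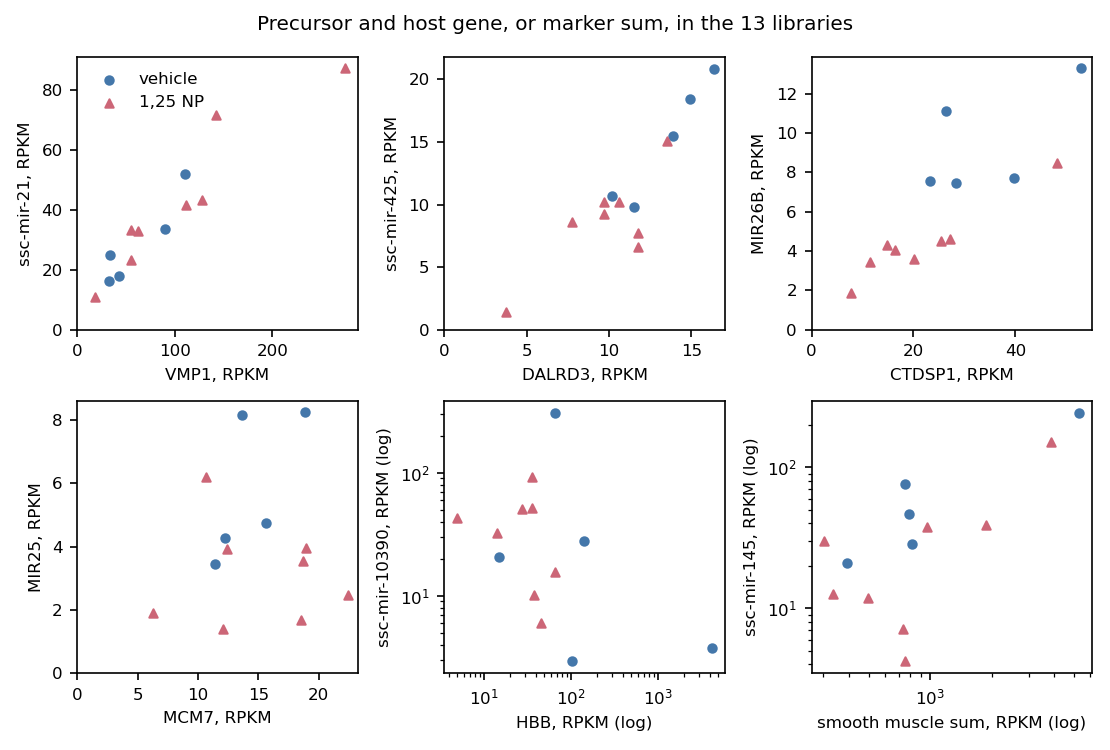
RPKM of a precursor (vertical axes) and of its host gene (horizontal axes) in the 13 libraries, vehicle as blue circles and 1,25 NP as red triangles; the last panel has the summed RPKM of 4 smooth muscle genes on its horizontal axis, and the last 2 panels have log axes. ssc-mir-21, ssc-mir-425 and MIR26B go up with their hosts (r = 0.96, 0.92 and 0.86), MIR25 and ssc-mir-10390 do not (r = 0.16 and -0.44), and the 2 highest ssc-mir-145 values belong to the 2 libraries with the most smooth muscle RNA.

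The genes that make and use microRNAs were read from a list of 30, of which 28 were found as rows and 26 were tested. LIN28A and LIN28B, which block let-7 maturation, stayed under the 0.5 RPKM condition. None of the 26 had an unadjusted p under 0.05 by limma, and none was called after adjustment. Their median log2 difference was -0.03, and 14 of 26 were below 0, 53.8% beside 56.2% of all genes. The sign of that median depended on single libraries and on the scaling, from -0.22 without vehicle P13 to 0.14 without 1,25 NP P28, and it was 0.07 under median-of-ratios scaling.

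DROSHA, the nuclear nuclease, had 4.48 ± 1.14 RPKM (SD, n = 5) among vehicle and 5.59 ± 1.69 (SD, n = 8) among 1,25 NP libraries, a log2 difference of 0.26 (SE 0.26). DGCR8, its RNA-binding partner, had 13.3 ± 2.77 and 11.2 ± 3.37, a log2 difference of -0.28 (SE 0.25). XPO5, the exporter, had 21.6 ± 4.48 and 27.3 ± 7.16, a log2 difference of 0.32 (SE 0.23). DICER1 stood at 17.9 ± 3.76 and 16.7 ± 3.41 and AGO2 at 9.34 ± 2.31 and 7.29 ± 1.85 RPKM, with log2 differences of -0.10 (SE 0.23) and -0.34 (SE 0.24).

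The 2 genes of the list with the smallest p on the higher side were RAN, the small GTPase that XPO5 works with, and PRKRA, a partner of DICER1. RAN had 9.33, 25.9, 25.8, 27.9 and 16.5 RPKM in vehicle and 10.1, 44.1 and 79.7 as the lowest, median and highest of 1,25 NP, a log2 difference of 0.86 (SE 0.47). P24, P31, P32 and P42 were its 4 highest libraries. PRKRA had a log2 difference of 0.53 (SE 0.35). On the lower side were the RNA-editing enzyme ADAR at -0.66 (SE 0.31), with its highest level in vehicle P17 at 41.3 RPKM, and the Argonaute partner TNRC6C at -0.75 (SE 0.45).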

How the data were processed

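The authors deposited 1 table with an RPKM value per gene and library and the gene length as another column. Libraries were TruSeq V2 from 0.5 µg of total RNA, per the labels' protocols. Aligner, counter, pig build, annotation and strand setting: not given in the sources used here. A treatment protocol in the labels describes mice, and the submitters' processing notes name a mouse build. Both contradict the pig identifiers and were not used. Coordinates are the file's, and 116 of 189 precursors match a RefSeq Sscrofa11.1 microRNA by position.

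Columns were assigned to groups by name. Each was taken as 1 animal, by its code. Reads were recovered as value × (length + 1) divided by the library's smallest step, and 100% of values came out whole within 0.001. limma 3.58.1 (R 4.3.3) with a mean-variance trend was fitted to log2(RPKM + 0.5) of 14579 genes, two-sided, with Benjamini-Hochberg adjustment at 0.05. This scale understates differences of low genes. Intervals cover the spread between animals.

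Named were MIR106B and MIR26B, the 6 precursors with the most reads, the 5 smallest p in each direction, their neighbours within 10 kb and their hosts, 5 core pathway genes and the 2 smallest p of the pathway list in each direction. The host RPS29 is named from a reference table. The members and lists were chosen with earlier results of these data known. Alternatives were other pseudocounts, filters, scaling, voom on recovered reads, sex and leaving out single libraries. Plots were made with matplotlib 3.10.9. The result of 1 marker list is not reported here.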

Additional observations from a re-analysis of the deposited data

Results flagged for a closer look

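In 84 groups of values (the named precursors, hosts and pathway genes in each group), 5 single values stood far from the rest by Dixon's criterion. They came from 1,25 NP P31 and P28 and vehicle P15. Chance meets the criterion in about 1 of 20 groups. Values of a precursor and its host in the same library are linked, so the 5 are not separate events to set against that rate. ssc-mir-425 had 1.42 RPKM in 1,25 NP P31, where the other 7 treated libraries had 6.62 to 15.1. Its host DALRD3 was low in the same library, at 3.76 RPKM against 7.77 to 13.5. MIR199A-1 had 16.2 RPKM in 1,25 NP P28 against 107.6 to 349.4 in the other treated libraries, and its host DNM3 had 0.746 against 1.66 to 2.59. ssc-mir-9807 had 1.52 RPKM in vehicle P15 and no read in the other 4 vehicle libraries. P28 was also the library with the most precursors without a read, 48 of 189.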

How the results depend on the processing

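No paired analysis was possible because the columns of the table carry no replicate number. No precursor was called under any of the settings tried, and over all genes 0 to 1 were called with 1 library left out (1 without vehicle P17) and 0 otherwise. The number of precursors was 102 with a mean of at least 10 reads, 163 above 1 RPKM and 159 above 0.5 RPKM in at least 8 libraries. Their median log2 difference stayed between -0.27 and -0.06, the latter without vehicle P15. At an unadjusted p under 0.05, 5 precursors were lower and 1 higher in males alone, beside 1.81% and 0.130% of all genes, and 24 were lower and 14 higher in females alone, beside 5.04% and 5.49%.

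Of 42 named genes, 26 kept their direction under all 24 settings that apply and 16 did not, and the cause was not tested. Among the 26 were MIR106B, MIR25, MIR26B, ssc-mir-191, ssc-mir-425, ssc-mir-152 and ssc-mir-130b. Those precursors had a small p in these same libraries or were neighbours of such precursors, so their kept direction is no independent support. In males alone the log2 difference turned for MIR20A (-0.18), ssc-mir-19a (-0.43), ssc-mir-1285 (ENSSSCG00000038379, 0.16), MIR92A-1 (-0.22), MIR199A-1 (-0.27), ssc-mir-2411 (-0.51), ssc-mir-6516 (-0.87), KLHDC2 (-0.0136), PDHX (-0.16), COPZ2 (0.00373), MCM7 (0.0703), COPS6 (-0.00747) and DNM3 (-0.13). In females alone it turned for ssc-mir-1285 (ENSSSCG00000035200, -0.13) and DICER1 (0.0644). Median-of-ratios scaling turned MCM7 (0.0960), RPS29 (0.0259) and DICER1 (0.00327). voom with sample quality weights turned ssc-mir-6516 (-0.47), COPZ2 (0.0318), MCM7 (0.24) and DICER1 (0.0200). With 1 library left out, values ran from -0.22 to 0.00304 for DICER1, -0.0691 to 0.21 for DNM3, -0.0983 to 0.15 for MCM7, -0.0109 to 0.27 for PDHX, -0.22 to 0.0236 for RPS29, -0.0669 to 0.55 for ssc-mir-2411 and -0.0529 to 0.70 for ssc-mir-6516. The median SE was 0.47 for the 87 precursors under 10 mean reads and 0.50 for the other 102.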
